A study of Mus musculus with 6 samples.

Results

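The 244 regions described here had an ATAC-seq peak in both interfollicular epidermis (IFE) libraries and both hair follicle (HF) libraries and in neither touch dome library. They were 244 of 75738 consensus regions, made by merging peaks of the 6 deposited lists that overlapped by at least 1 bp. The regions were chosen by these peak calls, so their presence in 4 libraries and absence in 2 is a description and was not tested. A region is called open in a library that had a peak in it and closed in one that had none. Closed therefore means that no peak was called there, not that the DNA was shown to be inaccessible.

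ATAC-seq maps open chromatin with a transposase that cuts and tags accessible DNA. All 6 libraries came from back skin of C57BL/6 mice at postnatal day 60, carrying TNC-CREER (a tamoxifen-inducible Cre driven by the tenascin-C gene) and a tdTomato reporter, and given tamoxifen at 100 µg per g on days 51 and 52. Touch dome cells were sorted as positive for EPCAM, SCA1, α6-integrin and tdTomato, and so depend on Tnc activity in the days of treatment. IFE cells had the same surface markers but no tdTomato, and HF cells were EPCAM and α6-integrin positive but SCA1 and tdTomato negative. Each population had 2 libraries of 50000 sorted cells, and nothing in the labels ties the replicates to different animals. The spread between replicates, and any p-value built on it, may thus be technical.

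Touch domes are small discs of epidermis beside guard hairs, where keratinocytes lie over mechanosensory Merkel cells and are supplied by sensory nerve fibres. The IFE makes the stratified barrier between hairs, and the follicle holds the stem cells of the hair. All are epithelial lineages of the skin. Regions open in several related cell types are often promoters or common enhancers, while regions that differ lie mostly far from promoters.

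Peak lists held 50153 and 59250 peaks in touch dome, 52219 and 51124 in IFE, and 54844 and 57131 in HF. The lists carry no read counts or heights, so depth is unknown. Touch dome replicate 2 had the most peaks and opened 2047 regions that no other library opened, against 460 for touch dome replicate 1. Such regions numbered 1863 and 683 in the IFE libraries and 1898 and 3379 in the HF libraries. At Tnc, whose promoter drove the Cre, 17 and 17 of 17 regions were open in touch dome, 11 and 11 in IFE and 13 and 12 in HF. At Ly6a, the SCA1 gene, 4 and 4 of 5 regions were open in touch dome, 5 and 5 in IFE and 2 and 2 in HF. The follicle stem cell regulator Lhx2 had 10 and 13 of 15 regions open in touch dome, 7 and 6 in IFE and 13 and 14 in HF. Lgr5, also a follicle marker, had 8 and 8 of 15, 4 and 4, and 12 and 14 in the same order. Other markers separated less or went the other way. Cadm1, listed as a touch dome gene, had 21 and 24 of 37 open in touch dome, 15 and 14 in IFE and 31 and 25 in HF. Sox9, a follicle marker, had 5 and 6 of 9, 6 and 7, and 8 and 7. The IFE marker Krt14 had 4 and 5 of 6, 4 and 5, and 6 and 6. Neither the 4 sort markers Tnc, Ly6a, Epcam and Itga6 nor Lhx2, Sox9, Lgr5, Krt5 and Krt14 had a region of the 244. In sorted bulk cells, fewer cells with an open site and less opening per cell cannot be told apart.

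Few of the 244 regions lay at gene starts, and those that did give the sequences that can be shown. Of the 237 regions on chromosomes that the promoter table covers, 7 (2.95%, exact 95% interval 1.20 to 5.99%) overlapped the RefSeq promoter window of a protein-coding gene, which runs from 250 bases before to 50 bases after the start. These were Acox2, Bcorl1, Fbln7, Ltbp4, Olfr71, Slc6a16 and Speer4d. A further 5 regions overlapped only the promoter window of a long noncoding RNA gene (Gm30827, Gm32202, Gm40124, Gm42116 and Mir670hg). The same share of coding promoters was 1.70% (1.35 to 2.11%) of the 4765 regions open in touch dome and IFE with HF closed, and 1.39% (1.00 to 1.89%) of the 2942 open in touch dome and HF with IFE closed. It was 26.9% of the 33176 regions open in all 6 libraries.

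The 250 bases before the start are printed for 3 genes that had no touch dome peak at any of their regions. They are on the gene's own strand, 5′ to 3′, from RefSeq on GRCm38.p6 (mm10), with capitals marking a match to one of the 6 motifs given after them.
Fbln7, chr2:128863682-128863931, + strand: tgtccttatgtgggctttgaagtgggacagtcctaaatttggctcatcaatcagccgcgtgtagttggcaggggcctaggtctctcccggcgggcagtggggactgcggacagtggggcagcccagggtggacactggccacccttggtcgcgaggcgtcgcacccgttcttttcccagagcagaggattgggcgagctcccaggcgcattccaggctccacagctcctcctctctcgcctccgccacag
Slc6a16, chr7:45240503-45240752, + strand: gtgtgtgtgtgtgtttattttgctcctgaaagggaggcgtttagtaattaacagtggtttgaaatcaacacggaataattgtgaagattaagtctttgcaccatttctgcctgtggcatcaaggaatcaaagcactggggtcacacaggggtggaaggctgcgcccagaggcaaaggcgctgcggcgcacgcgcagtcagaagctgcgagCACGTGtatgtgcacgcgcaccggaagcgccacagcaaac
Acox2, chr14:8258840-8259089, - strand: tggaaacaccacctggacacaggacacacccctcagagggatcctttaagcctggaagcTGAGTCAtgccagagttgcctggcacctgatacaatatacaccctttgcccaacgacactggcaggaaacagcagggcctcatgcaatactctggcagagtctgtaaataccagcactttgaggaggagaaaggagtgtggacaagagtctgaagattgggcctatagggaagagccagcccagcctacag

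Matches were sought on both strands. The AP-1 letters TGANTCA were in 2 of the 7 member promoters (Acox2 and Olfr71) and in 6.13% of 21262 coding promoters. The E-box letters CACGTG were in 2 (Bcorl1 and Slc6a16) and in 6.63% of all coding promoters. The Sp/Klf letters GGGCGG were in 3 (Bcorl1, Ltbp4 and Olfr71) and in 42.6% of all. The GATA letters GATAAG were in 0 of 7, against 6.25% of all. The Grhl letters AACCGGT were in 0 of 7, against 0.964% of all. The Oct/Pou letters TTTGCAT were in 0 of 7, against 3.86% of all. Overlapping matches of different motifs were counted for each. A match is only a string of letters, and 7 promoters are too few to set against the shares. No genome sequence was used here, so the other regions are given by position.

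The promoter of Fbln7, the gene of the matrix and adhesion protein fibulin-7, was the gene's single consensus region. Its peaks covered 0 and 0 bp in touch dome, 656 and 575 bp in IFE and 411 and 402 bp in HF. The nearest touch dome peak was 44.8 kb away, and the nearest other IFE and HF peaks were 44.7 to 44.8 kb away. Slc6a16, which encodes a member of the sodium-dependent transporter family, also had 1 region. Its peaks covered 0 and 0 bp in touch dome, 364 and 298 bp in IFE and 349 and 516 bp in HF, which are narrow peaks. A touch dome peak lay 4.97 kb from this region, and the nearest other IFE and HF peaks lay 5.07 to 5.2 kb away. Acox2 encodes a peroxisomal oxidase of branched-chain and bile acid intermediates. Its merged region, on chromosome 14 from 8258238 to 8259532, spanned both annotated starts. Only 322 bp, 24.9% of that region, were common to the 4 peaks, and which starts each peak covered was not examined. Peaks there covered 0 and 0 bp in touch dome, 553 and 334 bp in IFE and 680 and 1295 bp in HF. The nearest touch dome peak was 38.3 kb away. The nearest other peak was 42.6 and 38.4 kb away in IFE and 38.2 and 4.98 kb in HF. Olfr71 and Speer4d belong to multigene families, so reads at their promoters may be shared with near-identical copies. Bcorl1, a transcriptional corepressor gene, and Ltbp4, which encodes a latent TGF-beta binding protein, did have other regions, and at Bcorl1 1 of 5 was open in both touch dome libraries.

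The class was the smallest of the 3 in which a pair of populations was open and the third closed. The 244 regions were 0.322% of all consensus regions, against 6.52% (4941 regions) open in touch dome and IFE with HF closed and 4.02% (3045) open in touch dome and HF with IFE closed. Regions closed in both touch dome and open in both IFE libraries numbered 1360 (1.80% of all), and 244 of these (17.9%, exact 95% interval 15.9 to 20.1%) were open in both HF libraries. Of the 6036 regions (7.97%) closed in both touch dome and open in both HF libraries, the same 244 made up 4.04% (3.56 to 4.57%). These intervals cover counting error only, and regions are not replicates. Of all 75738 consensus regions, 54201 and 56239 were open in the HF libraries and 51631 and 50196 in the IFE libraries, each library taken alone. The share of all regions open in both libraries of a population was not computed. The 17.9% and 4.04% therefore stand without a like share beside them and are not read as low or high.

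**Figure D1:**
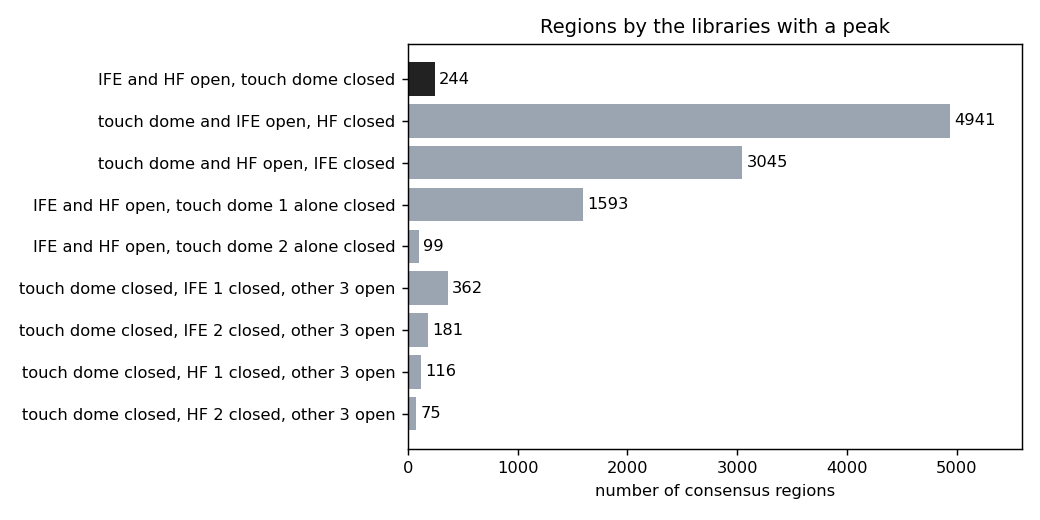
Bars give the number of consensus regions (linear axis from 0) for the 244 regions and for 8 classes of regions that differ from them in which libraries had a peak. The 244 regions stand well under the 4941 and 3045 regions of the like classes and under the 1593 regions in which touch dome replicate 1 was the only library without a peak.

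Just outside the rule, the 2 touch dome libraries differed widely. Touch dome replicate 1 alone lacked a peak at 1593 regions open in the other 5 libraries, and touch dome replicate 2 alone lacked one at 99. The touch dome peaks at these near misses were narrow, with a median of 558 bp in replicate 2 at the 1593 regions and 435 bp in replicate 1 at the 99. With touch dome closed and 1 of the 4 other libraries also closed, counts were 362 where that library was IFE replicate 1, 181 for IFE replicate 2, 116 for HF replicate 1 and 75 for HF replicate 2. Without touch dome replicate 2 the rule kept 1845 regions, and without touch dome replicate 1 it kept 343. Leaving out IFE replicate 1 gave 608 regions and leaving out IFE replicate 2 gave 425.

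Peaks in the 244 regions were narrow in all 4 open libraries. Their median was 434 and 470 bp in IFE and 526 and 532 bp in HF, against 936 and 896 bp over all IFE peaks and 909 and 858 bp over all HF peaks. Ranked by width within its own library, the median member peak stood at the 12.1 and 15.6 percentile in IFE and the 20.1 and 22.9 percentile in HF. In 187 of the 244 regions (76.6%) all 4 peaks were under the median width of their library. All 4 were over it in 3 regions, at Ngfr, Tacc2 and Socs2. Both counts were made for the 244 regions alone. No like share was computed over all regions open in these 4 libraries, so neither is read as particular to the 244. In the classes shared with touch dome the median stood higher, at the 38.0 and 33.6 percentile in IFE for regions shared by touch dome and IFE, and at the 54.7 and 53.5 percentile in HF for those shared by touch dome and HF. Other classes had peaks as narrow, with a median at the 12.4 and 9.13 percentile for regions open in IFE alone and the 21.3 and 22.7 percentile for those open in HF alone. Width is part of the peak call, so no test was made of these differences. With the wider 75% of each library's peaks 179 regions met the rule, but they overlapped 16 of the 244, and with the wider 50% the rule found 126 regions that overlapped 3.

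**Figure D2:**
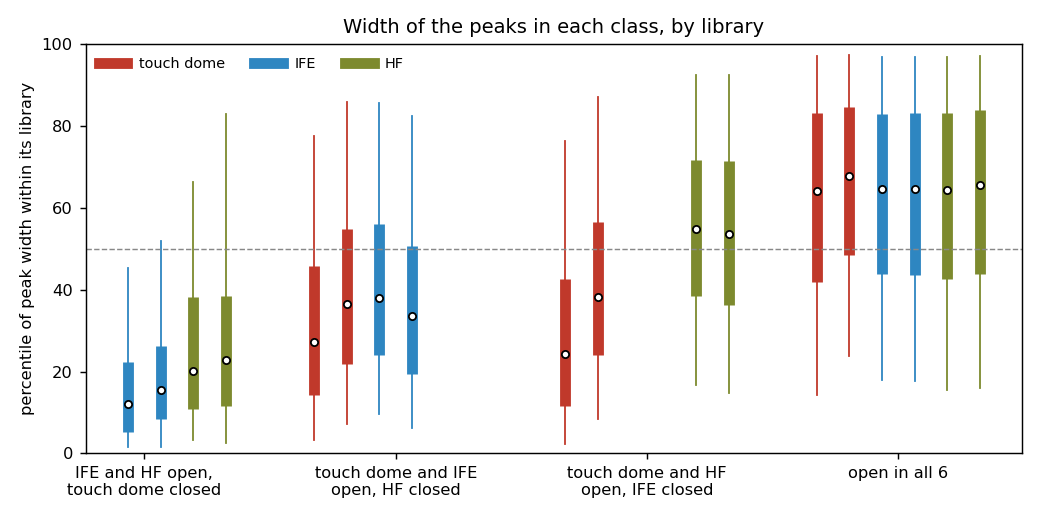
For each class, the vertical axis gives the percentile of a peak's width among all peaks of its library, with white points at the median, thick bars from the 25th to the 75th and thin lines from the 5th to the 95th percentile. The 244 regions are at the left, with medians of 12.1 and 15.6 in IFE and 20.1 and 22.9 in HF, under the dashed line at 50 and under those of the other 3 classes in the same libraries.

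Within the 244 regions the IFE peaks were narrower than the HF peaks. Library medians averaged 452.0 ± 25.5 bp in IFE and 528.5 ± 4.24 bp in HF (SD, n = 2 each), a difference of -76.5 bp, and the groups did not overlap. An exact two-sided permutation test gave p = 0.333, the smallest that 2 against 2 libraries allow. Both IFE peaks were wider than both HF peaks in 18 regions (7.38%), where 36.7% of all regions open in these 4 libraries had that order. Both HF peaks were wider than both IFE peaks in 81 regions (33.2%), against 23.9% of all. The 1593 regions that touch dome replicate 1 alone lacked had a like order, with 15.4% wider in IFE and 38.0% wider in HF, so it is not particular to the 244.

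The 4 libraries mostly marked the same stretch of DNA. A stretch common to the 4 peaks was present in 238 of 244 regions, with a median of 322.5 bp and a median of 53.0% of the region. In the other 6 regions, at Maip1, Cdkn2aipnl, Anxa13, 1700029H14Rik, Smad3 and 1 with no gene within 50 kb, the peaks were joined only by merging. Regions ranged from 319 to 2616 bp with a median of 682 bp, against 883 bp for those shared by touch dome and IFE, 1030 bp for those shared by touch dome and HF and 1293 bp for those open in all 6 libraries.

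Touch dome libraries had peaks near most of the regions. The nearest peak outside the region was a median of 6.02 and 4.23 kb away in touch dome, 4.20 and 4.30 kb in IFE and 4.47 and 4.52 kb in HF. Touch dome replicate 1 was the farthest of the 6, and touch dome replicate 2 was among the IFE and HF values. A touch dome peak lay within 10 kb of 192 regions (78.7%) and within 1 kb of 15 (6.15%, exact 95% interval 3.48 to 9.94%). By library, a peak lay within 1 kb of 4.10 and 5.74% of regions in touch dome, 6.56 and 6.56% in IFE and 5.33 and 5.33% in HF. At 7 regions no touch dome peak lay within 50 kb. When a library had to cover at least 50% of a region to count as open, 303 regions met the rule and 49.8% of them had a touch dome peak within 1 kb or inside, because short touch dome peaks in wide regions then count as closed.

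**Figure D3:**
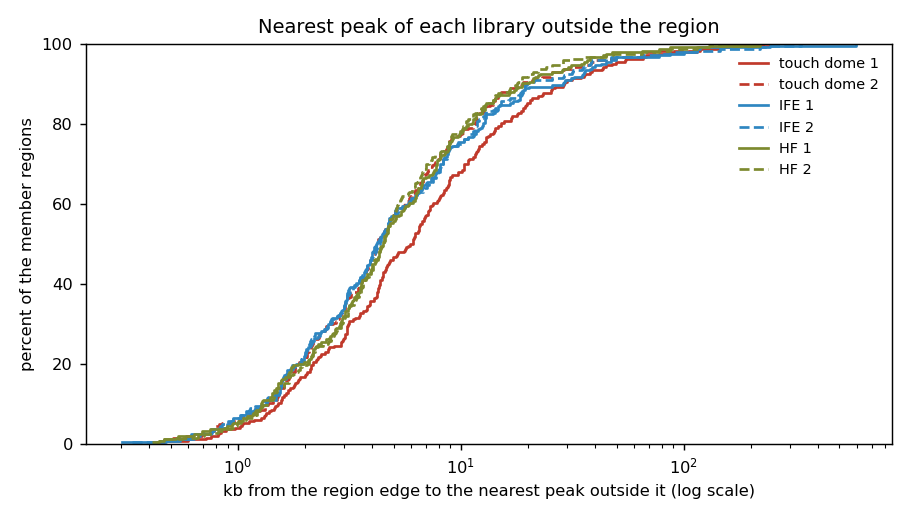
Curves give the percent of the 244 regions (vertical axis) whose nearest peak outside the region lies within a given distance in kb (horizontal log axis), 1 curve per library. Touch dome replicate 1 (solid red) runs lowest, with 68.0% of regions within 10 kb, and the other 5 libraries lie higher, up to 78.3% in HF replicate 2.

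Few of the regions lay near gene ends. Within 1 kb of either end of a protein-coding gene lay 13 regions (5.33%, exact 95% interval 2.87 to 8.94%), against 5.10% (4.50 to 5.75%) of those shared by touch dome and IFE, 3.25% (2.65 to 3.94%) of those shared by touch dome and HF, 32.5% of those open in all 6 libraries and 17.8% of all consensus regions. The share was 10.1% and 12.7% under the rule with the wider 75% and 50% of peaks. Inside a gene span were 126 (51.6%, 45.2 to 58.1%), against 57.6% of all consensus regions. Beyond 50 kb from any protein-coding gene were 33 (13.5%, 9.50 to 18.5%), against 19.9% and 32.4% of the like classes and 17.1% of all regions. Regions were spread over all autosomes and the X chromosome. Chromosome 8 had the highest share (21 of 3851 regions, 0.545%, exact 95% interval 0.338 to 0.832%) and chromosome 16 the lowest above 0 (3 of 2994, 0.100%, 0.0207 to 0.293%). The share over all consensus regions was 0.322%, just outside both intervals. These chromosomes were picked as the extremes of all, so that is not read as a difference, and none was tested.

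The region whose narrowest peak ranked highest by width lay in Ngfr, the gene of the p75 neurotrophin receptor, a cell surface receptor of the neurotrophin system. It spans chromosome 11 from 95578024 to 95579455 (mm10), inside the gene span from 95568818 to 95587698 and 8.24 kb from the end where transcription starts. Its peaks covered 0 and 0 bp in touch dome, 1311 and 1355 bp in IFE and 1432 and 1409 bp in HF, at the 75.9 to 85.1 percentile of width. A stretch of 1311 bp, 91.6% of the region, was common to the 4 peaks. Both touch dome libraries had a peak 1.32 kb away, and all 6 libraries had one inside the gene toward its start. Of the 7 regions assigned to Ngfr, 4 were open in all 6 libraries. The region met the rule with a cover of 50%, with the wider 75% and the wider 50% of peaks and with equal numbers of peaks, as did those at Tacc2 and Socs2 and no other of the 244. These 3 are also the regions whose 4 peaks were all over the median width of their library. The settings that keep wide peaks therefore retain them by construction, which is not separate support.

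Regions of the class also lay at the axon guidance genes Efna5 (an ephrin ligand), Sema4a (a semaphorin) and Slit3 (a Robo ligand). Sema4a peaks covered 0 and 0 bp in touch dome, 323 and 502 bp in IFE and 402 and 659 bp in HF, at a gene end. Efna5 peaks covered 0 and 0 bp in touch dome, 408 and 375 bp in IFE and 419 and 402 bp in HF, within 0.347 kb of a gene end. The Slit3 peaks were 387 and 354 bp in IFE and 367 and 465 bp in HF, with none in touch dome. The IFE and HF values overlapped at all 3 genes, and all their peaks were narrow beside those of Ngfr.

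**Figure D4:**
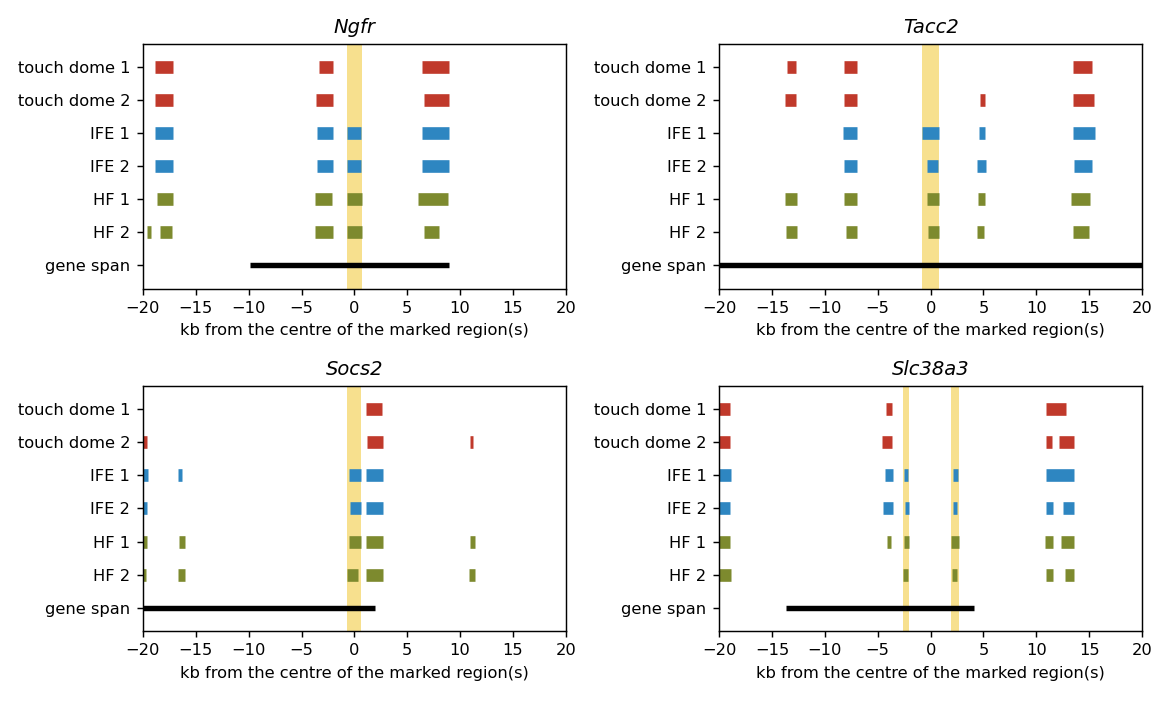
Peaks of the 6 libraries (coloured bars, touch dome at the top) and the gene span (black) within 20 kb of the centre of the marked regions (yellow), at Ngfr, Tacc2, Socs2 and Slc38a3, with the horizontal axis in kb. At Ngfr, Tacc2 and Socs2 wide IFE and HF peaks fill most of the marked region while the nearest touch dome peaks lie beside it, 1.32, 3.81 and 0.468 kb away. At Slc38a3 the peaks in the marked regions are narrow.

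Among the other regions with wide peaks, that of Tacc2, a centrosome-associated coiled-coil protein gene, covered 0 and 0 bp in touch dome, 1652 and 1077 bp in IFE and 1115 and 988 bp in HF. Socs2, a suppressor of cytokine and growth hormone signalling, had 0 and 0 bp in touch dome, 1206 and 1014 bp in IFE and 1198 and 1035 bp in HF. The Socs2 region ended 1.29 kb from a gene end, and a touch dome peak lay 0.468 kb away. Tnks2, encoding the poly-ADP-ribosylating enzyme tankyrase, had a region 9.80 kb outside the gene with 880 and 1175 bp in IFE and 1174 and 1202 bp in HF. Rreb1, a zinc finger factor of Ras signalling, had 871 and 1170 bp in IFE and 965 and 970 bp in HF. Peaks at these 4 regions were absent from both touch dome libraries by the rule, and 16, 1, 4 and 11 other regions of the same 4 genes in the order given were open in both. The IFE and HF values overlapped at all 4 genes.

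The adhesion receptor gene Adgrg1 had 867 and 915 bp in IFE and 875 and 986 bp in HF, and all 5 of its other regions were open in all 6 libraries. Fhl1, a LIM-domain protein gene on the X chromosome, had 875 and 850 bp in IFE and 842 and 730 bp in HF. Erp27, encoding an endoplasmic reticulum protein, had 833 and 763 bp in IFE and 768 and 651 bp in HF. Rnf217, a ubiquitin ligase gene, had 1460 and 789 bp in IFE and 1542 and 1495 bp in HF, with 23.4% of the region common to the 4 peaks. The remaining region of these 10 lay 121 kb from the nearest gene end, on chromosome 13 from 114580081 to 114581193, with 800 and 743 bp in IFE and 992 and 1052 bp in HF.

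**Figure D5:**
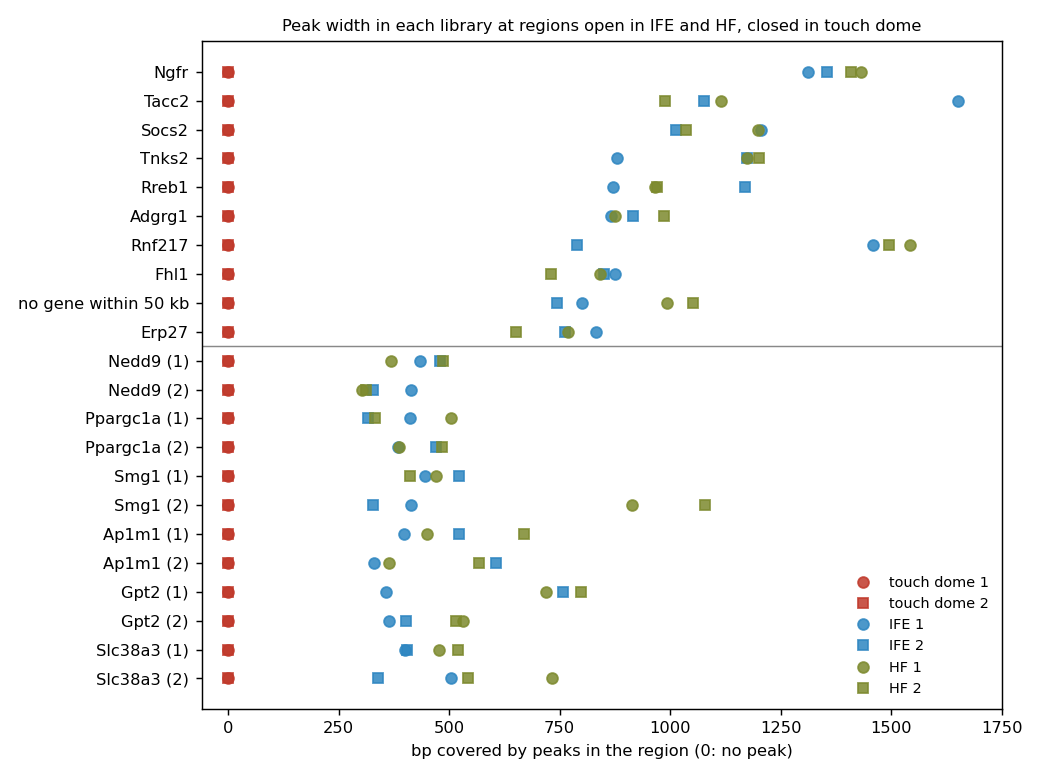
Horizontal positions give the bp covered by peaks in each of the 6 libraries (circles replicate 1, squares replicate 2), for the 10 regions whose narrowest peak ranked highest by width (above the line) and the 12 regions at the 6 genes that held a pair (below it). Touch dome points lie at 0 by the rule. Ngfr lies at 1311 to 1432 bp in its 4 libraries. Wider peaks are those of Tacc2 in IFE replicate 1 (1652 bp) and of Rnf217 in IFE replicate 1 (1460 bp) and both HF libraries (1542 and 1495 bp). Most regions of the lower block lie between 302 and 798 bp.

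No gene collected many of these regions. The 211 regions within 50 kb of a protein-coding gene fell at 205 genes, of which 199 held 1 and 6 held 2. The 6 were Nedd9, Ppargc1a, Smg1, Ap1m1, Gpt2 and Slc38a3. Nedd9, encoding a scaffold protein of integrin signalling, had its pair 9.03 kb apart, with 435 and 480 bp in IFE and 368 and 487 bp in HF at one, and 413 and 328 bp in IFE and 302 and 312 bp in HF at the other. Both touch dome libraries were open at 12 of the 29 Nedd9 regions, and HF alone at 7. Ppargc1a, the gene of the mitochondrial biogenesis coactivator PGC-1α, had a pair 74.4 kb apart with 317 to 505 bp in the 4 libraries. Smg1, a kinase gene of nonsense-mediated mRNA decay, had a pair 2.55 kb apart, and at one of them HF peaks (913 and 1079 bp) were wider than IFE peaks (414 and 328 bp).

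Ap1m1, an adaptor subunit gene of clathrin-coated vesicles, had its pair 12.8 kb apart and outside the gene, with touch dome peaks no nearer than 23.1 kb. Of its 5 regions, 1 was open in touch dome replicate 1 and 1 in replicate 2, 4 and 5 in IFE and 4 and 5 in HF. Gpt2, encoding mitochondrial alanine aminotransferase, had its pair 28.5 kb apart and 4 of 8 regions open in both touch dome libraries. Slc38a3, a glutamine transporter gene, had its pair 3.98 kb apart inside the gene, with 401 and 404 bp in IFE and 477 and 520 bp in HF at one and 505 and 340 bp in IFE and 732 and 543 bp in HF at the other. Both touch dome libraries were open at its other 2 regions. With the wider 75% of peaks 1 gene held 2 or more regions, and with an equal number of the widest peaks 11 did.

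Most genes with a region of the class had other regions open in touch dome. Of the 205 genes, 192 (93.7%) had another region open in both touch dome libraries and 187 had one open in all 6 libraries. They had a median of 8 consensus regions, against 2 for all 15506 genes with a region, and a median of 4 open in both touch dome libraries. Over all regions near genes 64.4% were open in both, which is a share of regions and not of genes. No share of genes was computed over all 15506 genes or over genes with as many regions. The 93.7% is therefore not read as particular to these genes. No region was open in any touch dome library at 8 genes, Acox2, Cdcp3, Fbln7, Gspt2, Nxnl1, Olfr71, Slc6a16 and Speer4d, and at Fbln7, Nxnl1, Olfr71 and Slc6a16 the class's region was the single one. Cdcp3 had 5 regions, of which 0 and 0 were open in touch dome, 1 and 2 in IFE and 3 and 5 in HF.

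Regions farthest from a touch dome peak differed in how far other IFE and HF peaks lay. The farthest, on chromosome 3 from 115641480 to 115642430, was 245 kb from the nearest other peak in both touch dome and both IFE libraries and 130 kb in both HF libraries. It overlapped the promoter window of the noncoding gene Gm40124. Its peaks covered 675 and 919 bp in IFE and 814 and 623 bp in HF, with a common stretch of 597 bp, so both populations were alike there. Next came regions at Cdcp3 (144 kb), Gspt2 (115 kb), Slc9a2 (77.5 kb), Bmerb1 (67.1 kb) and Shroom4 (65.6 kb), 1 with no gene within 50 kb (64.2 kb), then Fgf14, Fbln7 and Nckap5 (49.5, 44.8 and 39.9 kb). The distance was 77.5 kb in each IFE and HF library at Slc9a2, 86.7 kb in each at Bmerb1 and 44.7 to 44.8 kb at Fbln7. At Cdcp3 it was 49.6 and 8.99 kb in IFE and 8.85 and 8.86 kb in HF. At Gspt2 it was 115 and 115 kb in IFE and 21.1 and 115 kb in HF. At Fgf14 it was 49.5 and 16.3 kb in IFE and 1.06 and 1.2 kb in HF. At the region with no gene, on chromosome 7, it was 118 and 64.2 kb in IFE and 47.9 and 48.1 kb in HF. At Shroom4 it was 100 and 146 kb in IFE and 65.1 and 65.4 kb in HF. At Nckap5 it was 39.9 and 220 kb in IFE and 220 and 220 kb in HF. The region at Slc9a2, a sodium-proton exchanger gene, lay over a gene end with 449 and 616 bp in IFE and 872 and 1456 bp in HF, so both HF peaks were wider. At Shroom4, which encodes an actin-binding protein, they covered 622 and 553 bp in IFE and 900 and 762 bp in HF. Among the other regions within 1 kb of a gene end, those at Anxa13, Bcorl1, Pin1rt1, Ldlrad1 and Pmpcb had a touch dome peak at most 1.75 kb away.

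Of 24 gene lists, 14 held 1 or more of the regions. Of all 62783 regions near genes, 0.336% were in the class, and the share at each list is set beside that value. The list for stem cells and root sheath of the follicle had 3 of 465 regions (0.645%, exact 95% interval 0.133 to 1.87%), at Nfib, a stem cell factor of the follicle, and at Tcf7l1 and Tcf7l2, which carry Wnt signals to DNA. Peaks at Tcf7l1 covered 445 and 501 bp in IFE and 612 and 713 bp in HF, and at Tcf7l2 375 and 438 bp in IFE and 408 and 620 bp in HF. Both Tcf7l1 values in HF exceeded both in IFE, while the Tcf7l2 values overlapped. These 2 genes gave the Wnt pathway its 2 of 484 regions (0.413%), with no Wnt ligand or Frizzled receptor. The BMP and TGF-beta list had 2 of 333 (0.601%), at the signal transducers Smad1 and Smad3, and at Smad3 no base was common to the 4 peaks.

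Epidermal lists held 1 region each. In the IFE basal and adhesion list it was Plec, the hemidesmosome linker plectin (894 and 326 bp in IFE, 1091 and 1175 bp in HF, 1 of 236 regions, 0.424%). In the suprabasal and barrier list it was the desmosomal cadherin Dsc1 (439 and 412 bp in IFE, 307 and 435 bp in HF, 1 of 196, 0.510%). The touch dome list had Bcl11b, a transcription factor gene (435 and 623 bp in IFE, 1199 and 1359 bp in HF, 1 of 115, 0.870%). Only 7 bp of the Bcl11b region were common to the 4 peaks, and a touch dome peak lay 0.791 kb away. The infundibulum and sebaceous gland list had Gata3, a lineage factor of the epidermis and follicle (1 of 153, 0.654%). Both IFE peaks there (1225 and 903 bp) were wider than both HF peaks (518 and 577 bp). Of 12 regions at Gata3, 11 and 10 were open in touch dome.

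Signalling and cell state lists held 1 or 2 regions each, or 0. The clock and nuclear receptor list had 2 of 348 regions (0.575%), at the circadian repressor Bhlhe40 and the zinc finger factor Zbtb16. Growth factor signalling had Fgfr2, the keratinocyte FGF receptor (1 of 341, 0.293%). AP-1 and stress genes had Fosl2, an AP-1 subunit (1 of 162, 0.617%). The cell cycle list had the cyclin gene Ccnd2 (1 of 144, 0.694%). Hedgehog (146 regions), Notch (161), Hox (89), Merkel cell (55), wound and inflammation (230), antigen presentation (64) and sort marker (52) genes had 0. With 0 of 55 regions at Merkel cell genes, a share of up to 6.49% remains possible (exact 95% limit). The interval of each share given here included the 0.336% over all regions near genes.

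Of the 5 lists of markers of other cells, 2 held 1 region each. Melanocyte (37 regions), immune (17) and fibroblast (45) markers had 0 of the regions. The endothelial and mural list had 1 of 90 (1.11%, exact 95% interval 0.0281 to 6.04%), at Erg, where HF peaks (845 and 898 bp) were wider than IFE peaks (319 and 351 bp). The Schwann cell list had 1 of 39 (2.56%, 0.0649 to 13.5%), the Ngfr region already described, since Ngfr is also a Schwann cell gene. Both shares lie above the 0.336% over all regions near genes, rest on 1 region each, and have intervals that include it. The endothelial marker Pecam1 had no region of the class, but 10 and 11 of its 13 regions were open in touch dome, 13 and 11 in IFE and 11 and 11 in HF. The pan-leukocyte gene Ptprc had 1 region, with a peak in each touch dome library and none in IFE or HF. The part of such cells in the class was not tested.

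Some genes with a region of the class had many others. Slc24a3, a calcium exchanger gene, had 1 of its 36 regions in the class and 13 open in touch dome and IFE with HF closed. The Sox6 gene, encoding a SOX-family factor, had 1 of 22, beside 3 open in touch dome and IFE and 3 in IFE alone. Nfib had 1 of 52, located 48.9 kb outside the gene, with 448 and 328 bp in IFE and 412 and 426 bp in HF.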

How the data were processed

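ATAC-seq peak lists from 6 libraries were used, 1 list per library, each with 4 columns (chromosome, start, end and name) and no score, height or p-value, as deposited. Build mm10 and 4 tools are named per the submitters' processing notes: MACS2 2.2.7.1, SAMtools 1.9, Bowtie2 2.4.5 and Trim Galore 0.6.7. For settings, read filters and a shift for the transposase cut, no statement was found (not given in the sources used here). Depth is unknown, and weak peaks may be gained where sequencing was deeper. The peak width in bp, computed from each deposited start and end, stood in for strength.

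Coordinates are counted from 1. Peaks sharing at least 1 bp were merged into 75738 regions, and a library was open where it had a peak. A region's gene was the closest within 50 kb among 21896 protein-coding spans in RefSeq GRCm38.p6. The table lacks strand, so gene ends stand for starts and ends, while starts came from the RefSeq promoter table, which has no chromosome 18 entry. Motif search was planned for the regions and was limited to promoter windows, as no genome sequence was used here. Exons and introns were not used here. Of 610 listed genes, 605 matched. Regions are not replicates, so shares have exact binomial intervals at the 95% level and no test. The one test, IFE against HF width, was an exact two-sided permutation over 2 against 2 libraries. Named genes were those with 2 or more regions, the 10 regions with the highest lowest width percentile, the 10 farthest from a touch dome peak, the 10 widest near gene ends, the sort markers and up to 4 genes per list. Others were chosen after their values were seen, among them Pin1rt1, Ldlrad1, Maip1, Cdkn2aipnl, 1700029H14Rik, Nxnl1, Ltbp4, Slc24a3 and Sox6. The rule for the regions, and the lists, were chosen with earlier results of these data known. Merging and state calling, tested on simulated peaks, had 0 of 1194 library states wrong. Python 3.11.15, pandas 2.3.3 and SciPy 1.17.1 were used. A result that rests on an item withheld from this text, and the count of the axon guidance list, are not reported here.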

Additional observations from a re-analysis of the deposited data

How the results depend on the processing

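The number of regions stayed within 1.5 times of 244 with a cover of 50% (303), merging within 100 bp (244), autosomes alone (237), the wider 75% of peaks (179) and, chosen after seeing the data, a base shared by the 4 libraries (238). It was 126 with the wider 50% of peaks and 405 when each library kept an equal number of its widest peaks. Leaving out 1 library gave 321 to 1845 regions, the highest without touch dome replicate 2. A library left out loosens the rule by construction. Of the 244 regions, 160 met the rule with the 50% cover and 125 with equal numbers. Only 16 met it with the wider 75% of peaks and 3 with the wider 50%, so a near count can hold mostly different regions. Under the 50% cover, equal numbers and the wider 75% of peaks together, 14 met it. The median width was 1292.5 bp with the wider 50% of peaks, since narrow peaks are removed by that setting, and 607 to 800 bp with 1 library left out. The share within 1 kb of a gene end was 10.1% with the wider 75% and 12.7% with the wider 50% of peaks (the cause was not tested), and 5.59 to 8.45% with 1 library left out. The share with a touch dome peak within 1 kb was 49.8% with the 50% cover, which counts short touch dome peaks as closed, and 3.63 to 9.18% with 1 library left out. Genes with 2 or more regions numbered 1 with the wider 75% and 1 with the wider 50% of peaks, 11 with equal numbers, 3 with a 10 kb gene window and 8 to 166 with 1 library left out. IFE minus HF width was negative under every setting run, from -124.5 to -35.5 bp. Of 360 list counts under other settings, 265 were equal or within 1.5 times and 95 were not. The motif windows could not be varied because no genome sequence was used here. No paired analysis was possible because the counts and shares come from no test, and the width test has 2 libraries a group that share only a number.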
